A study of Homo sapiens with 6 samples.

Results

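DKK1, the secreted Wnt antagonist Dickkopf-1, and 9 other genes that restrain, carry or report Wnt signalling were followed in A375 cells depleted of the ubiquitin-conjugating enzyme UBE2S. The 10 genes are the secreted antagonists DKK1, DKK3, SFRP1 and WIF1, the ligand WNT5A, the signal transducer CTNNB1, the DNA-binding partners LEF1 and TCF7L2, and the feedback inhibitors AXIN2 and NKD1. They were taken by gene symbol from 18132 genes on the array, and all 10 were measured, by 48 probe sets. A375 is an established human melanoma cell line. The study profiled total RNA of 3 biological replicates that carried a lentiviral short hairpin RNA against UBE2S and of 3 control replicates, with 1 Affymetrix expression array each. The labels do not say what the control cells received, how many hairpins or clones were used, or when after transduction the cells were taken. They also do not say whether replicates came from separate transductions, so the spread between arrays may be partly technical.

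The values are log2 expression with each probe set centred on the median of the 6 arrays. A value of 0 is therefore the middle of the arrays and not an absent transcript, and levels of different genes cannot be compared. A difference is the mean of the knockdown arrays less that of the control arrays, in log2 units. In bulk RNA, fewer cells with a transcript and less of it per cell cannot be told apart. The genes were chosen with this contrast already known, since DKK1 was among its largest falls, so their differences are a description and carry no p-value. UBE2S itself was at -1.06 ± 0.06 (SD, n = 3) in knockdown arrays and 1.03 ± 0.03 (SD, n = 3) in control arrays, which left 23.5% of the control signal. This rests on 1 probe set.

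Canonical Wnt ligands bind a Frizzled receptor together with LRP5 or LRP6 and thereby stop the destruction complex, a scaffold of APC and axins with the kinases GSK3 and CK1, from marking beta-catenin, the product of CTNNB1, for degradation. Beta-catenin then enters the nucleus and activates target genes with DNA-binding proteins of the TCF/LEF family. DKK1 blocks the pathway at LRP5 and LRP6, SFRP1 and WIF1 bind Wnt ligands outside the cell, and AXIN2 and NKD1 are classical target genes that act back as inhibitors. WNT5A mostly signals without beta-catenin and is known in melanoma for its association with an invasive state.

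The sequence before the DKK1 start is shown because DKK1 is the member with the largest difference and is itself described as a target of TCF/LEF proteins. The 250 bases before its start, from RefSeq on GRCh38.p14, lie at chr10:52314031-52314280 on the plus strand. Capitals mark TCF/LEF words and the TATAAA element.
DKK1: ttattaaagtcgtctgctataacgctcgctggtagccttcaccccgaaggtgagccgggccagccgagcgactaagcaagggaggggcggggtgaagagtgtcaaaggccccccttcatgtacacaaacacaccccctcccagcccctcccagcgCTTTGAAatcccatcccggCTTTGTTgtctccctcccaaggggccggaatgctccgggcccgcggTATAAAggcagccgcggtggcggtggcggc

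The search used 4 words of 7 letters, CTTTGAA, the word CTTTGAT, the word CTTTGTA and the word CTTTGTT, on both strands, and TATAAA on the gene strand. DKK1 held 2 of the TCF/LEF words, CTTTGAA from 95 to 89 bases and CTTTGTT from 76 to 70 bases before its start, and TATAAA from 30 to 25 bases before it. Among 35116 windows of the same length, 12.0% held at least 1 TCF/LEF word, 1.21% held at least 2 and 6.80% held TATAAA. RefSeq windows were matched for 6 of the 10 genes, 9 windows in all. Only TCF7L2, in 1 of its 3 windows, held a further word, CTTTGTT from 133 to 127 bases before the start. The windows of WIF1, WNT5A, CTNNB1 and LEF1 held none of the words, and DKK3, SFRP1, AXIN2 and NKD1 had no entry. A match is a run of letters and does not show binding.

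DKK1 was strongly lower in knockdown cells, and most of the other 9 genes moved little. DKK1 stood at -1.23, -1.31 and -1.19 in the 3 knockdown arrays and at 1.28, 1.29 and 1.19 in the 3 control arrays. The groups were far apart and each was tight, with means of -1.24 ± 0.06 and 1.25 ± 0.06 (SD, n = 3 each). The difference was -2.49 (SE 0.05, 95% interval -2.60 to -2.38), that is 17.8% of control, or 5.62-fold less. A single probe set, 11718141_at, reads DKK1, so no other probe set on the array checks the size of the change. Its signal class, a coarse level read from the rounding of the values, was the highest of 3.

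**Figure D1:**
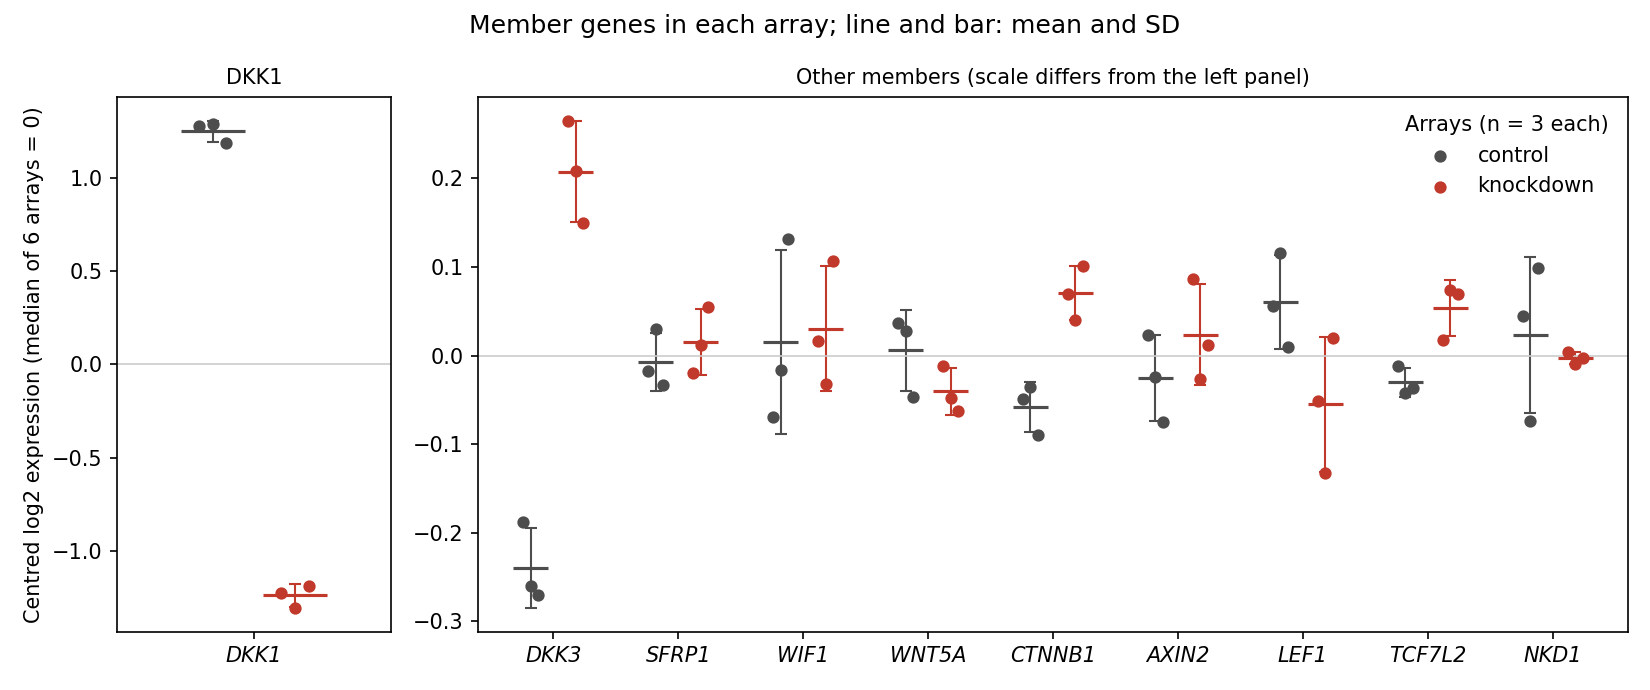
Centred log2 expression of the 10 genes (y axis, 0 is the median of the 6 arrays) in each control array (grey) and knockdown array (red), with mean and SD bars, n = 3 per group. DKK1 is drawn on its own scale and differs by -2.49, whereas the arrays of the other 9 genes lie between -0.27 and 0.26.

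Among the 10 genes, 3 passed an adjusted p of 0.05 in the fit over all genes, DKK1 below control and DKK3 and CTNNB1 above it. That is 30% of the members, beside 40.1% of all 18132 genes, and nothing is read from the count because the contrast helped to choose the members. The groups did not overlap in 4 of the 10 genes (DKK1, DKK3, CTNNB1 and TCF7L2), beside 50% of all genes. The median absolute difference was 0.067 in the members and 0.11 in all genes. In 8 of the 10 genes the difference was under 0.2 in size.

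DKK3 is a divergent Dickkopf relative that is often silenced in tumours and, unlike DKK1, is not regarded as a plain LRP5 and LRP6 blocker. It differed in the opposite direction to DKK1. The mean of its 6 probe sets was 0.26, 0.21 and 0.15 in knockdown arrays and -0.19, -0.26 and -0.27 in control arrays. Every knockdown array lay above every control array, and the difference was 0.45 (SE 0.04, 95% interval 0.35 to 0.55), or 1.36-fold. This size is an average of unequal probe sets. Probe set 11734701_a_at read 0.66, 0.75 and 0.73 against -0.97, -0.66 and -0.68, a difference of 1.48 (SE 0.09). The other 3 probe sets of the middle signal class gave 0.39, 0.31 and 0.25, and the 2 of the low class gave 0.22 (SE 0.11) and 0.031 (SE 0.11). All 6 were higher on average in knockdown cells, without overlap in 4. Without 11734701_a_at the gene's difference was 0.24.

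SFRP1, a decoy with a Frizzled-like domain that binds Wnt ligands, was measured by 4 probe sets, all of the high signal class. Their mean was -0.020, 0.012 and 0.055 in knockdown arrays and -0.018, 0.030 and -0.034 in control arrays. The groups overlapped, and the difference was 0.023 (SE 0.04) with a 95% interval from -0.066 to 0.11. WIF1, which also binds Wnt ligands, had 1 probe set, of the low class, at 0.017, -0.032 and 0.11 against -0.069, -0.017 and 0.13. Its difference of 0.015 (SE 0.06, interval -0.13 to 0.16) was smaller than the spread between arrays of 1 group.

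WNT5A read -0.011, -0.048 and -0.062 in knockdown arrays and 0.037, 0.027 and -0.046 in control arrays. The groups overlapped, and the difference of -0.046 (SE 0.04, interval -0.14 to 0.044) lies within their spread. Of its 5 probe sets, 4 lay between -0.051 and 0.059. The fifth, 11727189_x_at, gave -0.22 (SE 0.09), carried by knockdown replicates 2 and 3 at -0.22 and -0.32, while knockdown replicate 1 stood at 0.0020 among the controls. Without that probe set the gene's difference was -0.0021.

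CTNNB1 encodes beta-catenin, whose abundance is set mainly by protein degradation. Its 8 probe sets were all of the high class. Their mean was 0.069, 0.040 and 0.10 in knockdown arrays and -0.049, -0.036 and -0.089 in control arrays. The groups did not overlap, but the difference was small, at 0.13 (SE 0.04, interval 0.044 to 0.21), or 1.09-fold. It was higher on average in knockdown cells in 7 of the 8 probe sets, from 0.078 to 0.22, and stood at -0.013 in 11747387_a_at. The gene no longer passed the threshold without knockdown replicate 1 or 3, without control replicate 1 or 3, or under either spike-in scaling, where its difference was -0.039 with hybridization and 0.030 with poly-A spike-ins.

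LEF1 and TCF7L2 bind DNA and recruit beta-catenin, and many of their transcripts differ by alternative starts and exons. The mean of 9 LEF1 probe sets was -0.051, -0.13 and 0.019 in knockdown arrays and 0.056, 0.12 and 0.010 in control arrays. Knockdown replicate 3 lay above control replicate 3, so the groups overlapped, and the difference of -0.12 (SE 0.05) had an interval from -0.23 to 0.00046. It did not pass the threshold, but did so as lower with array weights (-0.14), with the most variable probe set (-0.41) and under both spike-in scalings. The LEF1 probe sets ranged from -0.41 to 0.092. The lowest 2 had the largest SE of the 9, 0.12 and 0.14. In 11736566_a_at the knockdown arrays read -0.16, -0.51 and -0.051 and the control arrays 0.13, 0.34 and 0.051. In 11726332_a_at they read -0.068, -0.45 and 0.024 against 0.15, 0.36 and -0.024. In both, the second knockdown array was lowest and the second control array highest, and the third arrays of the groups lay close together. The next lowest, 11726333_s_at of the high class, gave -0.20 (SE 0.05) without overlap. It read -0.093, -0.050 and -0.061 in knockdown arrays and 0.21, 0.13 and 0.050 in control arrays. Over the 9 probe sets, 2 passed the threshold of the fit over all probe sets downward and 0 upward.

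For TCF7L2 the mean of 7 probe sets was 0.018, 0.074 and 0.070 in knockdown arrays and -0.012, -0.042 and -0.037 in control arrays. The groups did not overlap, and the difference was 0.084 (SE 0.04, interval 0.0021 to 0.17), which did not pass the threshold over all genes. With the most variable probe set it passed as higher (0.34). This mean joins probe sets that differed in sign. The highest, 11751102_x_at and 11747829_x_at, gave 0.34 and 0.29 (SE 0.10 and 0.09), and the lowest, 11746314_s_at and 11746404_a_at, gave -0.17 each (SE 0.06 and 0.05). In the highest pair, the replicate 1 arrays of both groups were between -0.0245 and 0.0245, and the separation came from replicates 2 and 3. Over the 7 probe sets, 2 passed the threshold of the fit over all probe sets upward and 1 downward. Which TCF7L2 transcripts each probe set reads was not analysed here.

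AXIN2 replaces or joins AXIN1 in the destruction complex and is the usual transcript marker of beta-catenin activity. Its 3 probe sets were all of the low class, with a mean of 0.086, -0.026 and 0.012 in knockdown arrays and 0.023, -0.024 and -0.075 in control arrays. The groups overlapped, and the difference was 0.049 (SE 0.04, interval -0.054 to 0.15). The probe sets did not share a direction. Probe set 11718452_at gave 0.23 (SE 0.05) without overlap, 11718453_a_at gave 0.036 (SE 0.13) and 11718451_a_at gave -0.12 (SE 0.07). Leaving out 11718452_at turned the mean to -0.042. NKD1, which binds Dishevelled, read 0.0045, -0.0093 and -0.0024 against 0.045, -0.074 and 0.099 over 4 probe sets. Its knockdown arrays were nearly equal and lay inside the range of the control arrays, with a difference of -0.026 (SE 0.05, interval -0.14 to 0.087). The single probe sets of NKD1 were less even, with knockdown SDs from 0.058 to 0.13. Their differences ran from -0.13 to 0.10, 3 lower and 1 higher.

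**Figure D2:**
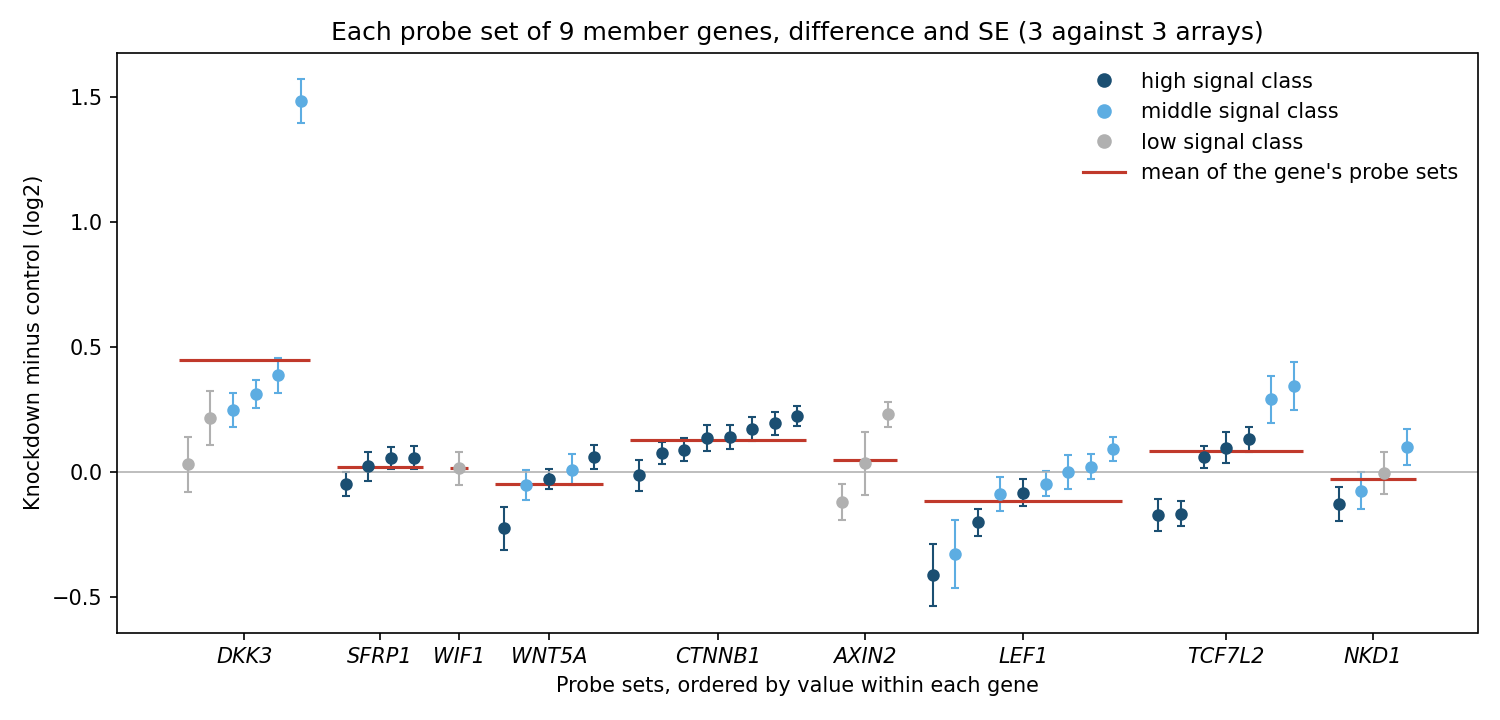
Difference of knockdown minus control (y axis, log2) with its SE for each probe set of the 9 genes other than DKK1, grouped by gene, coloured by signal class, with the gene's mean as a red line. The DKK3 probe set at 1.48 stands apart from the other 5. All genes but DKK3 and WIF1, which has 1 probe set, have probe sets on both sides of 0.

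At the level of probe sets, 14 of the 48 (29.2%) passed the threshold, 10 above and 4 below control, beside 36.9% of all 49293 probe sets. Without overlap were 22 of the 48, beside 48.2% of all probe sets. These counts too describe the members and support nothing, and probe sets of 1 gene can share probes.

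The arrays carry spiked-in bacterial transcripts that give other scalings. The 18 hybridization probe sets were 0.17 higher and the 24 poly-A probe sets 0.098 higher in knockdown arrays. Centring on them moved the median difference of all genes from -0.0038 to -0.17 and -0.10. DKK1 was then -2.66 and -2.59, and DKK3 0.28 and 0.35. SFRP1, WIF1, AXIN2 and TCF7L2 turned from slightly positive to negative under both, and CTNNB1 under the hybridization scaling. LEF1 and WNT5A passed the threshold as lower under both, at -0.28 and -0.21 for LEF1 and -0.21 and -0.14 for WNT5A, as did SFRP1 (-0.14) and NKD1 (-0.19) with hybridization spike-ins. Each scaling shifts all genes of an array by the same amount. Relative to the median of all genes, LEF1 is therefore at -0.11 and WNT5A at -0.043 under each of them by arithmetic. In the same way CTNNB1 stays at 0.13, SFRP1 at 0.027 and NKD1 at -0.022. The 3' to 5' difference of the ACTB control probe sets, a sign of RNA integrity, stood 0.19 above control with no overlap between groups, and that of GAPDH 0.023 above it with overlap. Their part in the small differences was not tested.

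**Figure D3:**
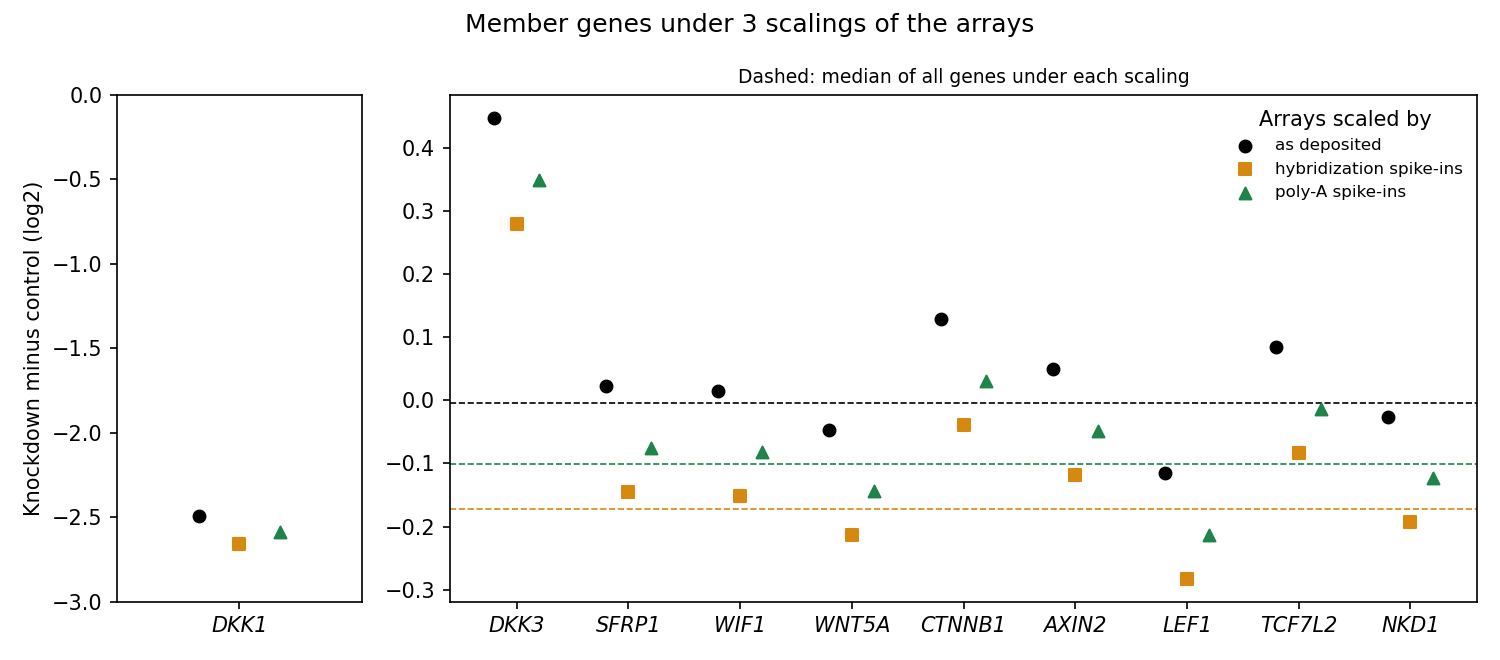
Difference of knockdown minus control (y axis, log2) of the 10 genes with the deposited normalization (circles) and with arrays centred on hybridization (squares) or poly-A (triangles) spike-ins. Dashed lines mark the median of all genes, at -0.0038, -0.17 and -0.10. DKK1 and DKK3 keep their direction, and 5 of the other genes change sign with the hybridization scaling.

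The genes with the pattern most like DKK1 were sought among the 192 other genes that differed by at least 1 on the log2 scale, by Pearson correlation over the 6 arrays. The closest were SHCBP1, a protein that binds the adaptor SHC1 (difference -1.11), the secreted hormone STC1 (-1.92), NET1, an exchange factor for the GTPase RhoA (-1.25), the chemokine CXCL2 (-1.15) and SLC25A32, a mitochondrial folate carrier (-1.02), with r from 0.9997 to 0.9999. The most opposite were C5orf15 (1.24), complement C3 (1.20), MLLT11 (1.26), the neuropeptide precursor TAC1 (1.94) and the interferon-induced IFI6 (3.05), with r from -0.9988 to -0.9991. These coefficients are descriptions over 6 arrays in 2 groups, in which the difference between the groups makes up nearly all of the variance.

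The other Wnt pathway genes were read from 8 lists of textbook members, which hold 148 distinct genes and none of the 10 above. Of 142 measured genes, 41 rose and 28 fell in limma at an adjusted p under 0.05, together 48.6%, beside 40.1% of all genes (21.4% upward and 18.6% downward). Their median difference was 0.0074, against -0.0038 in all genes. The split depended on the scaling, with 19 rises and 67 falls relative to hybridization spike-ins and 28 and 46 relative to poly-A spike-ins. Over all 18132 genes these scalings gave 1764 rises and 9196 falls, and 2486 rises and 6297 falls. Rises made up 22.1% and 37.8% of the called list genes, beside 16.1% and 28.3% of all called genes. The shift is therefore not particular to the lists, and the spike-in counts given below for each list carry it. A single gene of the lists, MYC, differed by at least 2-fold, and it is read by 1 probe set, of the middle class. The 34 genes named from the lists were picked as the largest rises and falls among the called genes of each list. Their adjusted p-values in limma, from 1.73e-06 to 0.0340, are therefore under 0.05 by selection and add no support. The groups overlapped in none of the 34, but were also without overlap in 80 of the 142 measured list genes and in 50% of all genes. Each of the 34 named genes kept its direction under the 14 alternative settings. That too follows largely from the selection and adds no support. The block and robust variance leave each difference unchanged, and the other settings reuse the same arrays.

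The Wnt ligands did not pass the test. Of 17 measured, 0 rose and 0 fell in limma, and 0 reached an unadjusted p under 0.05. Their differences ran from -0.16 in WNT7A to 0.065 in WNT10B, with a median of -0.032. Relative to hybridization and poly-A spike-ins 11 and 4 fell, 1 fell when the most variable probe set stood for each gene, and 1 fell without knockdown replicate 3. For 16 of the 17 no probe set was of the high class.

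Receptors changed in both directions. Of 16 measured, 7 rose and 3 fell (62.5%), with a median of 0.098, and relative to hybridization spike-ins 3 rose and 7 fell, with a median of -0.070. With poly-A spike-ins 4 rose and 4 fell. LRP6, a co-receptor that DKK1 binds, rose by 0.65 (SE 0.04), from -0.34 ± 0.06 in control to 0.31 ± 0.01 in knockdown arrays (SD, n = 3 each). The array values were 0.29, 0.31 and 0.32 against -0.29, -0.34 and -0.40, and the 3 probe sets gave 1.08, 0.65 and 0.22. The Frizzled receptors FZD3 and FZD6 rose by 0.57 and 0.48 (SE 0.04 and 0.03). LRP5, the partner co-receptor, outside the rule for named genes and shown because DKK1 binds it, rose by 0.25 (SE 0.06, adjusted p = 0.0109 in limma). RYK, a co-receptor that binds WNT5A among other ligands, fell by 0.88 (SE 0.04), with array values of -0.47, -0.41 and -0.45 against 0.42, 0.49 and 0.41, and is read by 1 probe set. FZD1 fell (-0.31, SE 0.05), as did FZD7 (-0.16, SE 0.04), which was not called without knockdown replicate 2.

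Among 16 other secreted antagonists and DKK receptors, 4 rose and 1 fell (31.3%, median 0.041). Relative to hybridization spike-ins 0 rose and 6 fell, and with poly-A spike-ins 1 rose and 2 fell. KREMEN1, which binds DKK1 and removes LRP6 from the cell surface, rose by 0.28 (SE 0.06), but its 3 probe sets gave 0.88, 0.17 and -0.20. TPBG, a Wnt-inhibitory membrane protein, rose by 0.23 (SE 0.04). DKK4 rose by 0.21 (SE 0.06) through a low-class probe set at 0.39, while the high-class one gave 0.034, and its call was lost without the lowest class, without knockdown replicate 1, without control replicate 2 and under both spike-in scalings. CER1, another secreted antagonist, fell (-0.14, SE 0.04), and that call was lost without any of 5 arrays in turn, the exception being control replicate 2. KREMEN1 was not called under either spike-in scaling, and TPBG was not called under the hybridization one.

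Among 10 genes of the R-spondin axis and of Wnt secretion, WLS, the carrier of Wnt ligands to the cell surface, rose by 0.27 (SE 0.04) and no gene fell, beside a median of -0.047. At an unadjusted p under 0.05, 1 rose and 1 fell in this list. Relative to hybridization and poly-A spike-ins 6 and 4 of the 10 fell, and WLS was not called with hybridization spike-ins (0.11). RNF43 and ZNRF3, ligases that remove Frizzled receptors and are themselves beta-catenin targets, stood at -0.043 and -0.050 (SE 0.04 each).

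Of 21 genes of the destruction complex and its regulators, 7 rose and 9 fell (76.2%), with a median of 0.065, and with hybridization spike-ins 4 rose and 10 fell, with a median of -0.10. PPP2R5A, a regulatory subunit of phosphatase PP2A, rose by 0.92 (SE 0.04), and the tankyrases TNKS and TNKS2, which mark axins for degradation, by 0.47 and 0.33 (SE 0.04 and 0.05). FRAT2, which binds GSK3, fell (-0.43, SE 0.05), as did the PP2A scaffold PPP2R1A (-0.30, SE 0.04) and the kinase GSK3B (-0.29, SE 0.03). AXIN1 (0.14, SE 0.07) and APC (0.065, SE 0.04) did not pass the test.

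Nuclear partners of beta-catenin rose in 6 and fell in 5 of 17 cases (64.7%, median 0.0064), and with hybridization spike-ins 3 rose and 9 fell. The corepressor TLE1 rose by 0.49 (SE 0.05), the adaptor BCL9 by 0.48 (SE 0.06) and the remodelling ATPase SMARCA4 by 0.31 (SE 0.04). PYGO2, which joins BCL9, fell (-0.30, SE 0.04), as did the deacetylase HDAC1 (-0.25, SE 0.05) and the acetyltransferase CREBBP (-0.23, SE 0.04).

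Of 25 textbook beta-catenin target genes, 7 rose and 6 fell (52.0%), with a median of -0.042. With hybridization spike-ins 4 rose and 13 fell, and with poly-A spike-ins 4 rose and 11 fell. The transcription factor MYC fell by 1.11 (SE 0.07), with knockdown arrays at -0.75, -0.47 and -0.53 and control arrays at 0.54, 0.58 and 0.47. CD44, a hyaluronan receptor, fell (-0.79, SE 0.03) in each of its 10 probe sets, from -1.23 to -0.59. MITF, the melanocyte transcription factor that LEF1 and beta-catenin can activate, fell (-0.72, SE 0.04). PROX1 rose by 0.77 (SE 0.06), the AP-1 subunit JUN by 0.72 (SE 0.04) and TIAM1, an activator of the GTPase Rac, by 0.41 (SE 0.08). The other 12 did not pass the test. Among these 12, NKD2 stood at -0.042 (SE 0.04), SP5 at 0.071 (SE 0.08), LGR5 at -0.11 (SE 0.05) and APCDD1 at -0.0091 (SE 0.09).

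In the planar polarity and calcium branch, through which WNT5A is known to act, 10 of 28 genes rose and 5 fell (53.6%, median 0.069). With hybridization spike-ins 5 rose and 11 fell, and with poly-A spike-ins 8 rose and 8 fell. The polarity cadherin CELSR2 rose by 0.55 (SE 0.07), the kinase subunit CAMK2D by 0.48 (SE 0.04) and the formin DAAM1 by 0.45 (SE 0.09). Besides RYK, the ubiquitin ligase SIAH2 fell (-0.71, SE 0.04), as did the stress kinase MAPK8 (-0.47, SE 0.07).

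**Figure D4:**
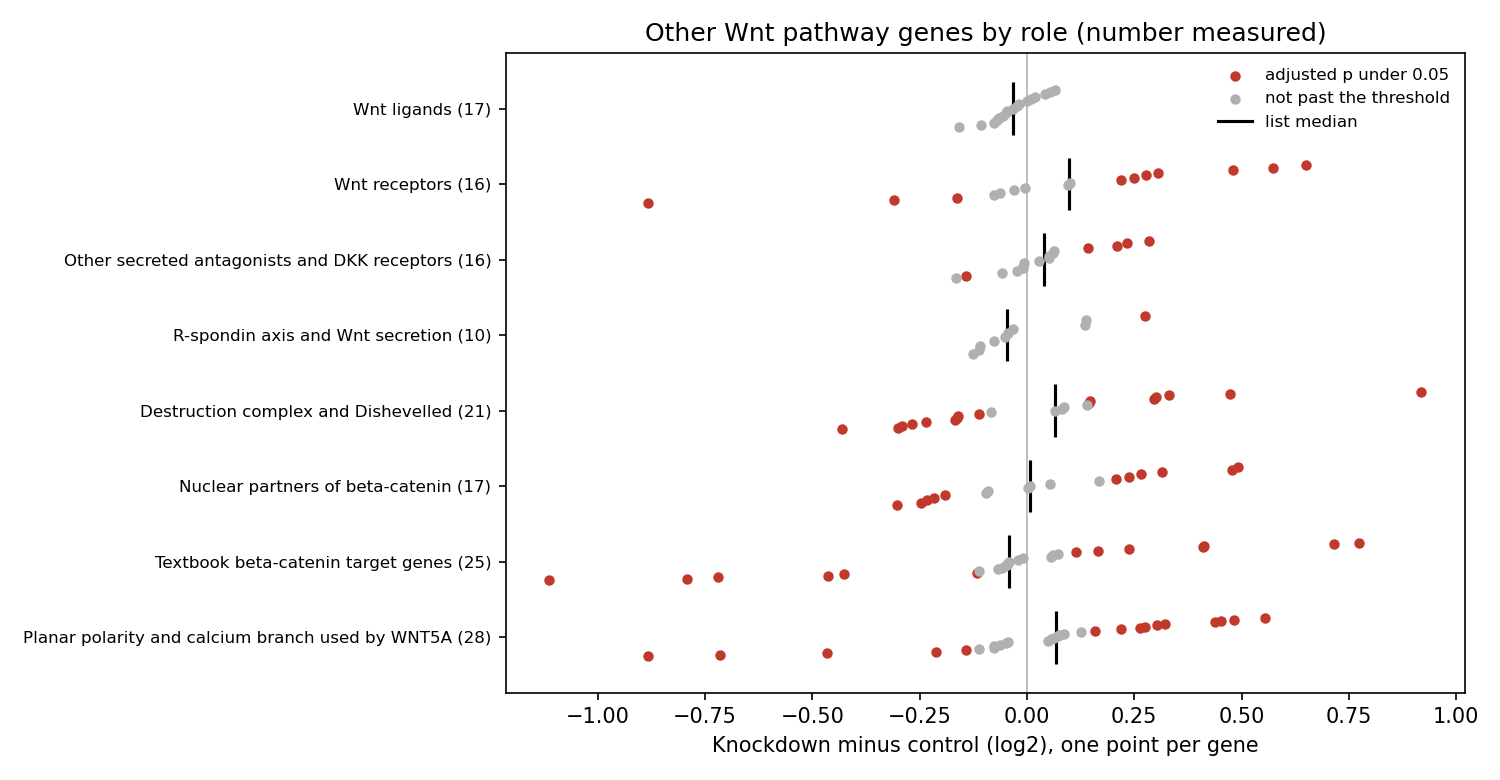
Difference of knockdown minus control (x axis, log2) of each gene in the 8 Wnt pathway lists, with the number measured in brackets, red where the adjusted p was under 0.05, and a black line at the list median. The 17 ligands lie between -0.16 and 0.065, and the receptors spread from -0.88 to 0.65.

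The melanocyte factor SOX10 and the melanoma marker S100B had probe sets of the high class, although centred values cannot show presence. MITF, MLANA, PMEL, TYR and S100A1 reached only the middle class, as did most markers of the other cell types below, and DCT was not measured. Of 7 melanocyte lineage markers measured, S100B rose by 1.09 and MITF fell by 0.72, and the other 5 did not pass the test. The summed centred value of the 7 ran from 0.14 to 0.45 in knockdown arrays and from -0.59 to 0.034 in control arrays. Markers of fibroblasts gave 1 rise and 1 fall in 6 genes, blood 1 rise in 4, endothelium 1 rise in 4 and keratinocytes 1 fall in 4, and none of the 18 genes of these 4 groups was of the high class. Their summed centred values ran in knockdown against control arrays from 0.17 to 0.53 against -0.57 to -0.34 (fibroblasts), 0.11 to 0.37 against -0.42 to -0.19 (blood), -0.14 to 0.14 against -0.17 to -0.044 (endothelium) and -0.20 to -0.059 against 0.19 to 0.40 (keratinocytes). The called genes were LUM (0.93) and DCN (-0.23) in fibroblasts, HBB (0.41) in blood, VWF (0.16) in endothelium and KRT14 (-0.46) in keratinocytes. The other genes of these groups did not pass the test, so the sums do not show whole sets moving. The part of these markers in the differences of the Wnt genes was not tested.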

How the data were processed

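The authors deposited a table of log2 values for 49395 probe sets, 102 of them array controls. The tools RMA, affy and limma are listed in the submitters' processing notes, which state neither versions nor what each was used for. The log base is taken from RMA. Each probe set is centred on its median (largest absolute median 4.85e-07), a step not described in the sources used here, so levels are lost. Of the probe sets, 44988 carry 1 gene symbol in the array annotation, 1832 several and 2473 none. Gene values are means of probe sets with that 1 symbol, without a filter. Pairs of arrays within a group differed with an SD between 0.125 and 0.144. The number of arrays limits the precision.

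Knockdown and control were compared in limma (version 3.58.1, under R 4.3.3) by lmFit then eBayes, without a block, two-sided, with Benjamini-Hochberg adjustment over all genes or probe sets and a threshold of 0.05. The members and lists were chosen with earlier results of these data known. Named genes are UBE2S, the members, up to 3 per direction in each list and the 5 most like and most opposite to DKK1. LRP5, and genes named without a call, were added after their values were seen.

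Signal classes (high 8 to 16, middle 4 to 8, low 2 to 4 before centring) were read from single-precision rounding. Any probe set with finer rounding than these was also counted as low. Classes can be placed too high, and 13 of 23 background controls were low, so a higher class does not show detection. Same-numbered arrays did not deviate together (correlations of -0.030, -0.016 and -0.10). Alternatives were the block, array weights, 3 centrings, the most variable probe set, no low class, robust variance and leaving out each array.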

Additional observations from a re-analysis of the deposited data

How the results depend on the processing

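DKK1 stayed lower under all 14 alternatives, which adds no support, since it was chosen for a fall far larger than these settings can shift. The block, robust variance, the most variable probe set and no low class cannot alter the difference of its 1 high-class probe set (-2.49). It was -2.66 with arrays centred on hybridization spike-ins and -2.59 with poly-A spike-ins. Without each array in turn it lay between -2.52 and -2.46. DKK3 stayed higher, from 0.28 to 1.48, the highest when its most variable probe set stood for it. CTNNB1 reversed to -0.039 with hybridization spike-ins and to -0.013 when probe set 11747387_a_at was read alone. The first reversal is the shift shared by all genes, since relative to their median CTNNB1 stayed at 0.13. Past the threshold were 3 members in the main analysis, 6 with hybridization spike-ins, 4 each with poly-A spike-ins and with array weights, 5 with the most variable probe set, and 2 or 3 without each array. With hybridization spike-ins 10960 genes changed, 1764 higher and 9196 lower, against 7266 (3888 and 3378) with the deposited scaling. With poly-A spike-ins 2486 were higher and 6297 lower. Probe sets changed in 9628 cases upward and 8561 downward with the deposited scaling. With hybridization spike-ins 4786 were higher and 20889 lower, and with poly-A spike-ins 6425 were higher and 14490 lower. Of the Wnt list genes, 19 rose and 67 fell with hybridization spike-ins, and 28 rose and 46 fell with poly-A spike-ins. Without each array in turn, 6331 to 6637 genes and 61 to 67 Wnt list genes changed. The 34 genes named from the lists were picked by their calls. Of them, 28 kept their call under all 14 alternatives and 6 (FZD7, KREMEN1, TPBG, DKK4, CER1 and WLS) lost it under at least 1. The causes were not tested. With the replicate number as a block, 6684 genes and 64 Wnt list genes changed, 2 members passed the threshold, CTNNB1 and CER1 no longer did, and the difference of DKK1 was -2.49. The same-numbered arrays share only a number. Signal over background is not known for any gene, since centring removed the level.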
